A study of Mus musculus with 6 samples.

Results

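The 49 genes described here are neighbours on the distal part of mouse chromosome 3, around Cnn3 and Fam102b. They were chosen by position, as listed genes of a stretch that runs from Gnai3 to Alpk1, out of 18193 named genes on the arrays. In the order of the RefSeq annotation the outermost of them are Gstm1 and Tifa. The stretch itself was selected on the difference between the strains in these same arrays, so that difference is given below as a description and carries no test in its own right. An array feature with a single gene symbol was present for 48 of the 49 genes, with 122 probe sets in all. For Alpk1 none was found here. Tmem56 is listed under its current symbol, Tlcd4, in the annotation, and 1 further probe set that is shared by Rnpc3 and Amy1 was left out.

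RNA came from bone marrow of adult female mice aged 6 to 16 weeks, after removal of cells that carry mature blood lineage markers, a step that enriches for haematopoietic stem and progenitor cells. The groups were C57B/L6, with 3 arrays, and B.D(Chr5), with 3 arrays, whose background is given as B.D in the labels. No label names chromosome 3, and the strain label names chromosome 5. The samples of a strain are described as biological replicates, but nothing says whether each was a single mouse or a pool, so the spread between them may be partly technical.

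Genes that lie side by side on a chromosome are inherited together, and alleles at nearby positions can change the level of each gene separately. The genes of this stretch are not known for a shared function. Among them are regulators of the actin cytoskeleton, receptors and G protein subunits, transporters, RNA processing factors, enzymes of glutathione metabolism and parts of an innate sensing pathway. On these arrays a gene is read by 1 or more probe sets, each a group of short probes for a part of the transcript, usually near its 3′ end. A name ending in _x_at marks probes that may also bind other transcripts, one ending in _s_at marks probes shared by several transcripts, and one ending in _a_at probes for several transcripts of the same gene.

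The letters upstream of 4 of these genes are shown because these genes had the strain differences that held in every setting tried, Cnn3, Fnbp1l and Tmem56 being lower and Fam102b higher in B.D(Chr5). They are the 250 bases before the annotated start in the RefSeq sequence of GRCm38.p6, which is the C57BL/6J genome, read 5′ to 3′ on the strand of the gene. Capitals mark CCAAT boxes, searched by those letters, and GC boxes, searched as GGGCGG, on either strand. The TATA box was searched as TATAAA, a motif of GATA factors as AGATAA and one of RUNX factors as TGTGGT, and each had 0 matches in these 4 windows. None of these motifs contains another. The start of Tmem56 is the first of the 2 listed.
Cnn3, chr3:121426291-121426540, plus strand: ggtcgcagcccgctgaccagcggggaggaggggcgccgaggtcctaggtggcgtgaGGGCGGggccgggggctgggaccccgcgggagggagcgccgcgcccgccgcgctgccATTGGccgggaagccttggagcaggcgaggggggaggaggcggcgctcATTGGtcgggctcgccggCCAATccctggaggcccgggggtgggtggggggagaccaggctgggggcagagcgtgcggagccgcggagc
Fnbp1l, chr3:122619715-122619964, minus strand: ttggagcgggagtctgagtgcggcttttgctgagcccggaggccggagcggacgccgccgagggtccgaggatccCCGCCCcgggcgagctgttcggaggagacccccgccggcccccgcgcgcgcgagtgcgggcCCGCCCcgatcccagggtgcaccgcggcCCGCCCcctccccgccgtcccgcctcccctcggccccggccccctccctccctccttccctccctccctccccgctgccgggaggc
Tmem56, chr3:121263341-121263590, minus strand: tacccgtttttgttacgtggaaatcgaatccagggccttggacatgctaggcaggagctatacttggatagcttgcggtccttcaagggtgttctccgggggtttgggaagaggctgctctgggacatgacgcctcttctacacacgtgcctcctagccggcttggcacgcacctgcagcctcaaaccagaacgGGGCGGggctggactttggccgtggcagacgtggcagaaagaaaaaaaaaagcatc
Fam102b, chr3:109027608-109027857, minus strand: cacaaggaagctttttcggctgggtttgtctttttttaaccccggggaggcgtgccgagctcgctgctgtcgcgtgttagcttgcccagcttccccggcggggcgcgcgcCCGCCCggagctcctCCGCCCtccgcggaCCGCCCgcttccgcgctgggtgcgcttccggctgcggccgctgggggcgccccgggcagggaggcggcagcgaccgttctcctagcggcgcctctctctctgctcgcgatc

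All 4 windows were free of TATA boxes. Those of Cnn3, Fnbp1l and Fam102b were GC-rich, and that of Tmem56 was less so. The GC content was 78.8% for Cnn3, 80% for Fnbp1l, 56% for Tmem56 and 72% for Fam102b, with 28, 33, 13 and 34 CpG dinucleotides. Cnn3 had 3 CCAAT boxes and 1 GC box, Fnbp1l and Fam102b had 3 GC boxes each, and Tmem56 had 1. Promoters were listed for 43 of the 49 genes, 61 windows in all. Of these, 50.8% held a GC box, 36.1% a CCAAT box, 11.5% a TATA box, 9.84% the RUNX motif and 0% the GATA motif. Among all 32851 windows of the table the shares were 32.7%, 33.8%, 12.4%, 14.05% and 9.99%. The windows of the chromosome 3 genes had medians of 16 CpG dinucleotides and 61.6% GC, against 6 and 52.4% for all windows. A match to these letters is a description of the reference and not a site of binding. The sequence of B.D(Chr5) was not used here. Whether it differs from the reference under the probes, and the part of such differences in the signals, was not tested.

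The arrays were similar in scale, with median signals from 65.1 to 79.5. The 95th percentile of the 27 controls of bacterial sequence, taken as the background of an array, lay between 21.8 and 38.0. The 18S ribosomal RNA signal ranged from 1726 to 20010.3 and was highest on B.D(Chr5) replicate 2. Markers of stem and progenitor cells were above background on all arrays for all 7 of the 8 listed genes that were measured. Their summed signal was 34454 to 37762 on the C57B/L6 arrays and 34303 to 38998 on those of B.D(Chr5). Myb was the brightest of the 7, with means of 16689 and 17061, and weighed most in that sum. The log2 change was negative for 5 of the 7, down to -0.41 for Meis1. It was positive for Myb (0.031) and Cd48 (0.29), and the median of the 7 was -0.12. Signal of other cell types was present as well. The summed signal of 6 markers of maturing neutrophils was 41316 to 45861 in C57B/L6 compared with 49485 to 68193 in B.D(Chr5), and that of 7 markers of stroma and endothelium, of which 4 were above background on all arrays, was 1357 to 2820.5 and 2615 to 4161. That of 5 measured B lymphoid markers, all above background on all arrays and all higher in B.D(Chr5) with a median log2 change of 0.68, was 1749 to 2041 and 2072 to 5325. Of 6 markers of monocytes and dendritic cells 5 were higher and 1 was lower, with a median of 0.19. All measured markers of T and NK cells (5), erythroid cells (4) and megakaryocytes (6) were lower in B.D(Chr5), with medians of -0.56, -0.18 and -0.14. The part of these cells in the values of Cnn3 and the other genes was not tested. In a mixed population, fewer cells of a type and less RNA per cell cannot be told apart. Among the marker lists 0 genes passed the threshold used below.

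Of the 122 probe sets, 84 from 41 genes lay in the upper 50% of all probe sets by mean signal and entered the comparison of the strains, which was fitted with limma over all 22518 such probe sets. Values are log2(signal + 16), so the change of a dim gene is understated, and a probe set is said to pass when its p-value, adjusted by Benjamini-Hochberg over all of them, is below 0.05. Of the 84 probe sets, 6 passed as lower in B.D(Chr5), against 0.0888% of all tested probe sets, and 4 passed as higher, against 0.0933%. They belonged to 6 of the 41 tested genes, against 0.223% of all 10743 tested genes. Cnn3, Tmem56 and Fnbp1l were lower, and Fam102b was higher, as were Rwdd3 and Slc30a7 on 1 of their tested probe sets each. Because the stretch was selected on this comparison, nothing is read from the distance between these shares. In 25 of the 84 probe sets the strains did not overlap, 16 of them lower and 9 higher in B.D(Chr5). That separation was found in 9.38% of all tested probe sets.

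**Figure D1:**
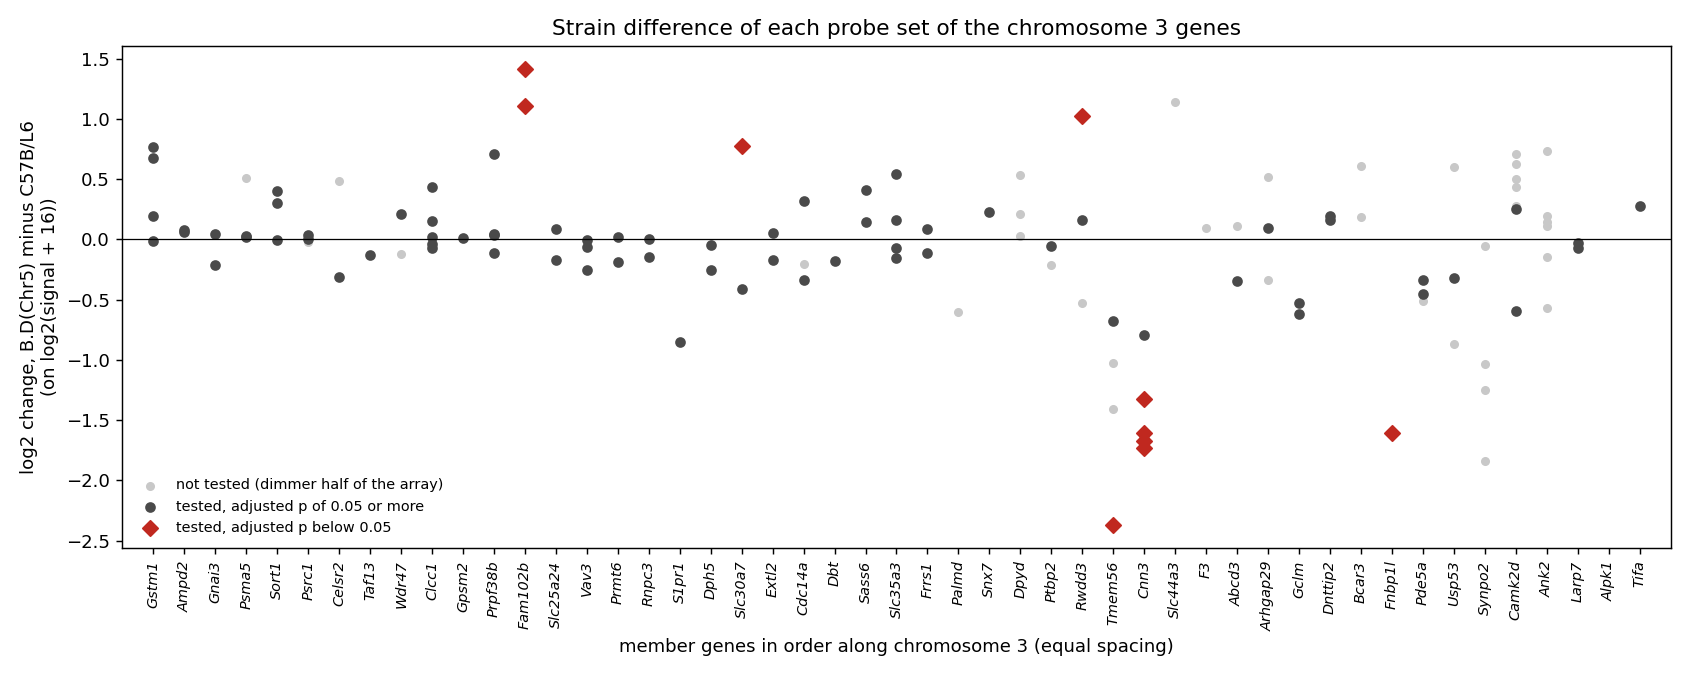
Log2 change, B.D(Chr5) minus C57B/L6, of each of the 122 probe sets (points), with the 49 genes in order along chromosome 3 at equal spacing. Red diamonds are the 10 probe sets past the threshold; most other tested probe sets lie near 0. Fam102b stands among genes with small changes, while Rwdd3, Tmem56 and Cnn3 stand side by side.

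Cnn3 encodes calponin 3, which binds actin and acts in the contractile cytoskeleton. It was read by 6 probe sets, and all 6 were lower in B.D(Chr5) with no overlap between the strains. On the probe set 1436836_x_at the C57B/L6 arrays read 4433, 5086 and 4938 and the B.D(Chr5) arrays 1332, 1718 and 1687, a 3.05-fold difference of the means. The log2 change was -1.61 with an SE of 0.11. The probe set 1426724_at, the only one of the 6 whose name does not mark possible binding to other transcripts, gave 1443 ± 73.4 in C57B/L6 against 566 ± 40.8 in B.D(Chr5) (mean ± SD, n = 3 each). Its log2 change, -1.33 (SE 0.10), was the smallest of the 4 that passed. The others of those 4, 1436759_x_at and 1455570_x_at, had log2 changes of -1.73 and -1.67. The signal of Cnn3 was thus lower on each of the 4, by a log2 value between -1.73 and -1.33.

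The remaining 2 probe sets of Cnn3 did not pass and went the same way. On 1456380_x_at the log2 change was -1.65 with an SE of 0.34, the widest of the 6, and the C57B/L6 arrays read 1442, 3579.5 and 2926. It passed with all 6 arrays when each was centred on its median, at a log2 change of -1.66, and also without C57B/L6 replicate 1, the lowest of these (2 arrays against 3). Leaving out the array nearest to the other strain enlarges a change in any case, so nothing is read from the latter pass. On the dim 1438354_x_at the signals were 137, 107 and 166 on the C57B/L6 arrays and 84.5, 57.8 and 72.9 on those of B.D(Chr5), a log2 change of -0.79.

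Tmem56, now Tlcd4, encodes a membrane protein with a TLC domain, and it had the largest log2 change of the tested genes in the stretch. The probe set 1434553_at read 1408, 1067 and 1000.4 in C57B/L6 compared with 144, 287 and 217 in B.D(Chr5), a 5.36-fold difference of the means. The lowest C57B/L6 array was above the highest B.D(Chr5) array by a wide margin. The log2 change was -2.37 with an SE of 0.22. All 3 other probe sets were lower as well, but dim. On 1431404_at the signals were 101, 125 and 78.6 in C57B/L6 against 32.5, 82.1 and 63.9 in B.D(Chr5); the strains overlapped and the log2 change of -0.68 did not pass. The others were too dim to be tested. On 1456718_at the means were 65.7 ± 3.22 and 24.1 ± 3.36 (SD, n = 3 each). On 1439353_x_at all 3 B.D(Chr5) arrays were at background while the C57B/L6 arrays read 69.0, 77.0 and 56.5, so the signal was at least 2.2-fold lower in B.D(Chr5).

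Rwdd3, the gene beside Tmem56, encodes a protein that enhances the attachment of SUMO to other proteins. It went the other way. On 1451809_s_at the C57B/L6 arrays read 160.0, 153 and 164 and the B.D(Chr5) arrays 313, 363 and 343, a 2.14-fold difference of the means and a log2 change of 1.02, SE 0.14. The spread within C57B/L6 was small and the strains did not overlap. Another probe set, 1430167_a_at, read 154, 194 and 110.4 on the C57B/L6 arrays and 148, 161 and 203 on those of B.D(Chr5), with overlapping strains and a log2 change of 0.16. The third, 1420732_at, lay below 30 on every array. The higher signal of Rwdd3 thus rests on 1 of 2 tested probe sets, and it did not pass when any 1 of the 6 arrays was left out.

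Fnbp1l encodes an F-BAR protein that bends membranes and promotes actin assembly through N-WASP. Its single probe set, 1434339_at, read 759.9, 896 and 976 in C57B/L6 compared with 286, 255 and 286 in B.D(Chr5). All 3 B.D(Chr5) arrays lay below every C57B/L6 array, with a 3.18-fold difference of the means. The log2 change was -1.61 with an SE of 0.13, close to that of Cnn3, and no other probe set can be set beside it.

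Fam102b was higher in B.D(Chr5) on both of its probe sets. On 1434828_at the C57B/L6 arrays read 1457, 1647 and 1747 and the B.D(Chr5) arrays 3739, 3297 and 3473, a 2.17-fold difference of the means. On 1455033_at they read 1055, 952 and 1342 against 2964, 2711 and 3287, a 2.68-fold difference. The strains did not overlap on either. The log2 changes were 1.11 with an SE of 0.094 and 1.42 with an SE of 0.13. The gene model of Fam102b overlaps that of Henmt1 in the annotation.

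Slc30a7 encodes a transporter that moves zinc into the Golgi apparatus, and its 2 probe sets differed in opposite directions. On 1435717_at the C57B/L6 arrays read 305, 305 and 349 and the B.D(Chr5) arrays 567, 556 and 548, with a log2 change of 0.77 and an SE of 0.12. On 1450697_at they read 794, 903 and 802 against 723, 506 and 655, with a log2 change of -0.41 and an SE of 0.14. The strains did not overlap on either probe set, so no direction can be given for the gene as a whole. The first of these passed with all arrays and not when any 1 of the 6 was left out; the second did not pass.

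**Figure D2:**
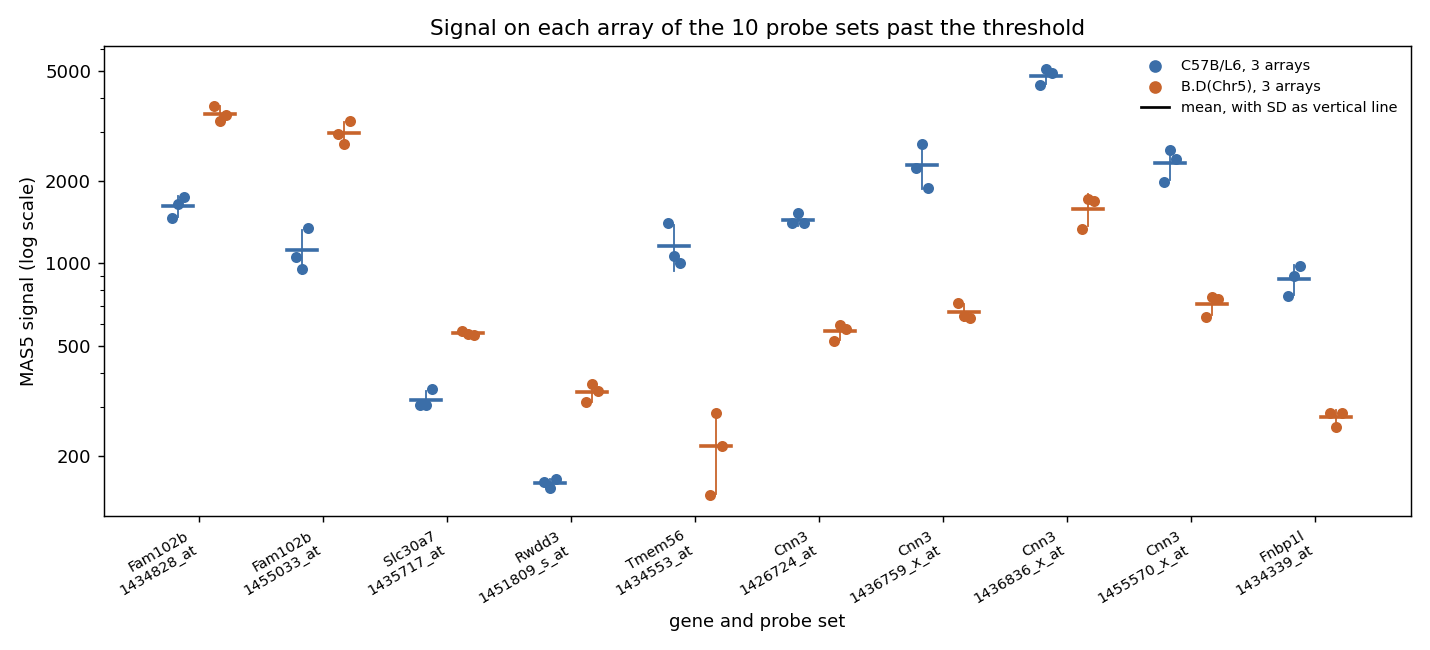
MAS5 signal (log scale) on each array of the 10 probe sets past the threshold, with C57B/L6 in blue, B.D(Chr5) in orange, horizontal bars for the mean and vertical lines for the SD of 3 arrays. In each of the 10 the arrays of one strain lie above those of the other.

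Of the 41 tested genes, 28 had 2 or more tested probe sets. In 14 of the 28 all of them had the same sign, and in the other 14 both signs occurred. The log2 changes of the probe sets of a gene spanned a median of 0.26. The span exceeded 1 in 2 genes, Tmem56 and Slc30a7. Slc35a3, which carries UDP-N-acetylglucosamine into the Golgi apparatus, had a span of 0.70. Its brightest probe set, 1429648_at, had a log2 change of -0.16, while 1424579_at read 292, 374 and 247 in C57B/L6 against 517, 473 and 360.1 in B.D(Chr5), a log2 change of 0.54 with overlapping strains.

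**Figure D3:**
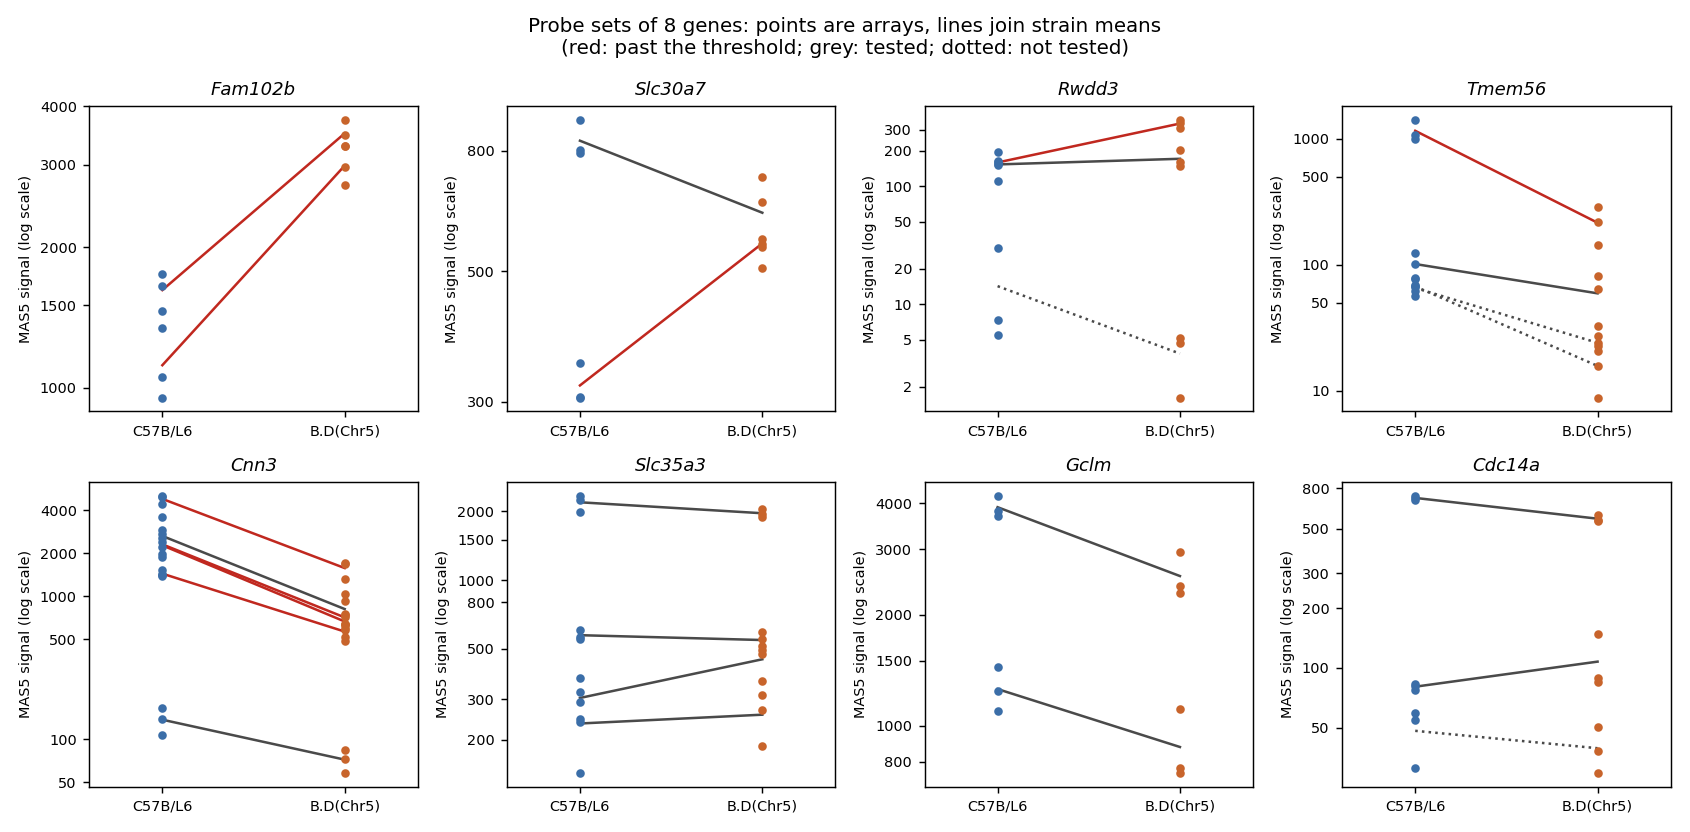
MAS5 signal (log scale) of every probe set of 8 genes, with points for the 3 C57B/L6 arrays (blue) and the 3 B.D(Chr5) arrays (orange) and lines that join the strain means. All lines of Cnn3, Tmem56, Gclm and Fam102b slope the same way within the gene, while those of Slc30a7 slope in opposite directions.

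Among the genes for glutathione metabolism, Gclm and Gstm1 differed in opposite directions, and neither passed with all arrays. Gclm encodes the modifier subunit of glutamate-cysteine ligase, which makes the precursor of glutathione. On 1418627_at it read 4196, 3701 and 3812 on the C57B/L6 arrays and 2383, 2957 and 2288 on those of B.D(Chr5), without overlap and with a log2 change of -0.62 (SE 0.11). On 1439050_at it read 1440.4, 1094 and 1239.9 against 746, 1114 and 772, a log2 change of -0.53 with overlapping strains. On both probe sets B.D(Chr5) replicate 2 was the B.D(Chr5) array nearest to C57B/L6. Without that array, the first had a log2 change of -0.74 and passed (2 B.D(Chr5) arrays against 3). Leaving out the array nearest to the other strain enlarges a change in any case, so nothing is read from this pass. Over all tested probe sets, that omission took the calls from 41 to 74.

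Gstm1 encodes a glutathione transferase of the mu class. On 1448330_at the C57B/L6 arrays read 862, 1010.4 and 856 and the B.D(Chr5) arrays 1914, 988 and 1971, and on 1416416_x_at they read 1240.3, 1485 and 895 against 2511, 1010.0 and 2686. On both, B.D(Chr5) replicates 1 and 3 were about alike and replicate 2 lay among the C57B/L6 arrays. The log2 changes were 0.76 and 0.68 with SEs of 0.23 and 0.33. Without B.D(Chr5) replicate 2 the log2 change of 1448330_at was 1.09 and it passed. Here too the array left out was the one nearest to C57B/L6, so nothing is read from this pass. The other 2 probe sets had log2 changes of 0.20 and -0.016. B.D(Chr5) replicate 2 also had the highest 18S signal of the 6 arrays and the highest summed signal of the stromal and endothelial markers, 4161 against 1357 to 2820.5 on the others; the part of these in the values of Gclm and Gstm1 was not tested. The mu class genes resemble each other closely and several lie side by side here, so a probe set may read more than 1 of them.

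The other enzymes in the stretch differed little. Ampd2, an AMP deaminase, had log2 changes of 0.064 and 0.075. Dbt, the transacylase of branched-chain keto acid breakdown, read 546, 494 and 503 in C57B/L6 compared with 459.7, 425 and 471 in B.D(Chr5), a log2 change of -0.18. Extl2, a glycosyltransferase of heparan sulphate synthesis, had -0.17 and 0.055. Dpyd, which starts the breakdown of pyrimidines, had no probe set above background on all arrays of either strain, its highest signal on any array being 30.5.

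Of the 5 genes for G protein, lipid, cyclic nucleotide and calcium signalling, 0 passed. S1pr1 encodes a receptor for sphingosine 1-phosphate that guides blood cells out of tissues. Its single probe set read 211, 277 and 276 in C57B/L6 against 134, 103 and 170.3 in B.D(Chr5). The strains did not overlap, and the log2 change, -0.85 (SE 0.21), did not pass. The summed signal of 5 T and NK cell markers was 1344 to 1987 on the C57B/L6 arrays and 939 to 1301 on those of B.D(Chr5). All 5 were above background on all arrays and lower in B.D(Chr5). The 5 measured B lymphoid markers and the 7 of stroma and endothelium were all higher there, with median log2 changes of 0.68 and 0.94. The part of any of these cells in the value of S1pr1 was not tested.

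Gnai3, an inhibitory G protein alpha subunit, had 4961 ± 131 and 5129 ± 138 on 1428645_at (SD, n = 3 each), a log2 change of 0.048. Gpsm2, which links G protein signalling to the orientation of the mitotic spindle, had a log2 change of 0.011. Pde5a, which breaks down cyclic GMP, had -0.34 and -0.45 on its 2 tested probe sets, with overlapping strains on both. Camk2d, a calcium-dependent kinase, gave -0.60 on 1422659_at and 0.25 on 1427763_a_at, so its 2 tested probe sets disagreed. The strains overlapped on the former and not on the latter. Its other probe sets, of 7 in all, were too dim to be tested and all higher, with log2 changes from 0.28 to 0.71.

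Of the other genes that act on actin, membranes or adhesion, 0 passed. Vav3, a signalling protein of blood cells, had log2 changes of -0.008, -0.061 and -0.25. Arhgap29 had 0.098 on its 1 tested probe set. Synpo2, an actin-binding protein of muscle, was dim on all 4 probe sets and not tested. On 1452879_at it read 83.9, 46.2 and 73.3 in C57B/L6 compared with 13.2, 5.66 and 3.31 in B.D(Chr5), where all 3 arrays were at background, so it was at least 2.16-fold lower there. On 1441206_at the signals were 69.1, 84.1 and 60.4 against 29.8, 8.77 and 26.3. On 1450828_at they overlapped, with a log2 change of -0.056. Bcar3 had log2 changes of 0.61 and 0.19 on 2 untested probe sets. Palmd, a relative of the membrane protein paralemmin, and Ank2, an ankyrin that anchors membrane proteins, had no probe set above background on all arrays of either strain. The single probe set of Palmd read 12.6, 47.0 and 70.5 against 6.66, 18.3 and 41.7, and the strains overlapped. In all, 42 of the 49 genes had a probe set above background on all 6 arrays.

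Among the transporters and sorting proteins, Abcd3, which carries fatty acids into peroxisomes, read 2129.9, 1930.3 and 1990.3 in C57B/L6 against 1579, 1640.2 and 1526 in B.D(Chr5). The strains did not overlap, and the log2 change, -0.35 (SE 0.083), did not pass. Sort1, the sorting receptor sortilin, was higher on 2 of 3 probe sets, with 0.31 and 0.40, and had -0.0047 on the third; 0 passed. Slc25a24, a mitochondrial carrier of adenine nucleotides, had 0.085 and -0.17. Clcc1, a chloride channel of the endoplasmic reticulum, was within 0.1 of 0 on its 3 brighter probe sets and had 0.15 and 0.43 on the dim ones. Its gene model overlaps that of Gpsm2. Snx7, a sorting nexin, had 0.23. Slc44a3, a choline transporter-like protein, was at background in C57B/L6, at 6.55, 6.81 and 7.91, and read 59.8, 28.5 and 23.1 in B.D(Chr5), of which 1 array was above its own background.

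The 8 genes for transcription, RNA processing and translation were all tested, and 0 passed. Their brightest probe sets had a median log2 change of -0.054, and 0 of the 8 went beyond 0.5 in either direction. Taf13, a subunit of TFIID, was the one whose strains did not overlap, reading 1324, 1263 and 1279 on the C57B/L6 arrays and 1181, 1196 and 1152 on those of B.D(Chr5), a log2 change of -0.13. Larp7, which stabilises 7SK RNA, had -0.027 and -0.067. Prpf38b, a pre-mRNA splicing factor that lies next to Fam102b, had 0.034 and 0.045 on its bright probe sets and 0.71 on a dim one with overlapping strains, which read, C57B/L6 first, 99.9, 55.6 and 34.4 against 102, 134 and 88.2. The brightest probe sets of the others gave 0.021 for the arginine methyltransferase Prmt6, -0.15 for the minor spliceosome protein Rnpc3, -0.049 for the diphthamide enzyme Dph5, -0.058 for the splicing regulator Ptbp2 and 0.20 for Dnttip2.

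The genes of cell division showed a similar picture. Cdc14a, a phosphatase, read 697, 717 and 737 in C57B/L6 compared with 549, 553 and 588 in B.D(Chr5) on its brightest probe set, without overlap and with a log2 change of -0.34, which did not pass. On the dim 1443184_at it read 80.9, 82.9 and 77.2 against 84.8, 88.8 and 149, a change of 0.32 the other way. Sass6, which builds the centriole cartwheel, had 0.14 and 0.41. Psrc1, a spindle protein, had means of 742 ± 48.2 and 741 ± 14.7 (SD, n = 3 each). Psma5, a subunit of the proteasome core, had 0.019 and 0.027 on its bright probe sets. Usp53, of the ubiquitin protease family, had -0.32 on its tested probe set, with overlapping strains. On the untested 1452385_at it read 97.8, 99.2 and 76.2 in C57B/L6 against 47.3, 32.0 and 49.8 in B.D(Chr5), without overlap. On the dimmer 1458899_at, also untested, the log2 change was 0.60, the other way, with overlapping strains.

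Tifa joins the kinase encoded by Alpk1, a sensor of bacterial sugar metabolites, to TRAF6 and NF-kappaB. It read 2002, 1944 and 1889 in C57B/L6 against 2241, 2231 and 2637 in B.D(Chr5). The B.D(Chr5) arrays were all higher, with a log2 change of 0.28 that did not pass. F3, the tissue factor that starts coagulation, was at background on all 6 arrays. Of the remaining genes, the ferric reductase gene Frrs1 had log2 changes of -0.11 and 0.09, Wdr47 had 0.21, and the cadherin receptor gene Celsr2 had -0.31, and 0 of them passed.

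Along the chromosome, some genes that passed stood among genes with small differences and others stood side by side. Fam102b, at 1.11 on its brightest probe set, lay between Prpf38b at 0.045 and Slc25a24 at 0.085. Rwdd3, Tmem56, Alg14 and Cnn3 were 4 consecutive tested genes that all passed on at least 1 probe set, Rwdd3 as higher and the other 3 as lower, with Alg14, which was not among the 49, at -1.77 on the probe set that passed and -0.10 on its brightest. On its other side Cnn3 had Abcd3 at -0.35. Fnbp1l lay between Dnttip2 at 0.20 and Pde5a at -0.34. When the genes were divided in order into 5 stretches, after their values had been seen, the median absolute log2 change of the brightest probe sets was 0.075 over the 11 tested genes from Gstm1 to Gpsm2 and 0.065 over the 6 from Prpf38b to Rnpc3. It was 0.17 over the 11 from S1pr1 to Ptbp2, 0.82 over the 8 from Rwdd3 to Fnbp1l and 0.28 over the 5 from Pde5a to Tifa. The stretch from Rwdd3 to Fnbp1l held 4 of the 6 genes that passed. Both of its ends are such genes, so nothing is read from this count or from its median.

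Over all 41 tested genes the brightest probe sets were lower in 22 and higher in 19, with a median log2 change of -0.042, where all 10743 tested genes had a median of -0.0084. The absolute change had a median of 0.18, against 0.083 for all tested genes. It exceeded 0.5 in 8 of the 41 (19.5%), against 3.15% of all tested genes. It was at most 0.1 in 14 and at most 0.25 in 24 of the 41. Between the outermost genes lay 17 other tested genes, of which Alg14 and the adjacent Sec24d (-1.32) and Mettl14 (-2.14) passed, all lower in B.D(Chr5). The absolute change of the 17 had a median of 0.081 and exceeded 0.5 in 3 of them (17.6%). For the 456 tested genes of chromosome 3 outside, the median was 0.083, and 10 (2.19%) exceeded 0.5. On the brightest probe sets the strains did not overlap in 14 of the 41 (34.1%), 5 of the 17 (29.4%) and 59 of the 456 (12.9%). Over all 10743 tested genes they did not overlap in 1064 (9.90%). Because the stretch was selected on the strain difference, nothing is read from the distance between these values. The tested genes next to either end were Gstm3, with a log2 change of 0.24, and Ap1ar, with -0.022.

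**Figure D4:**
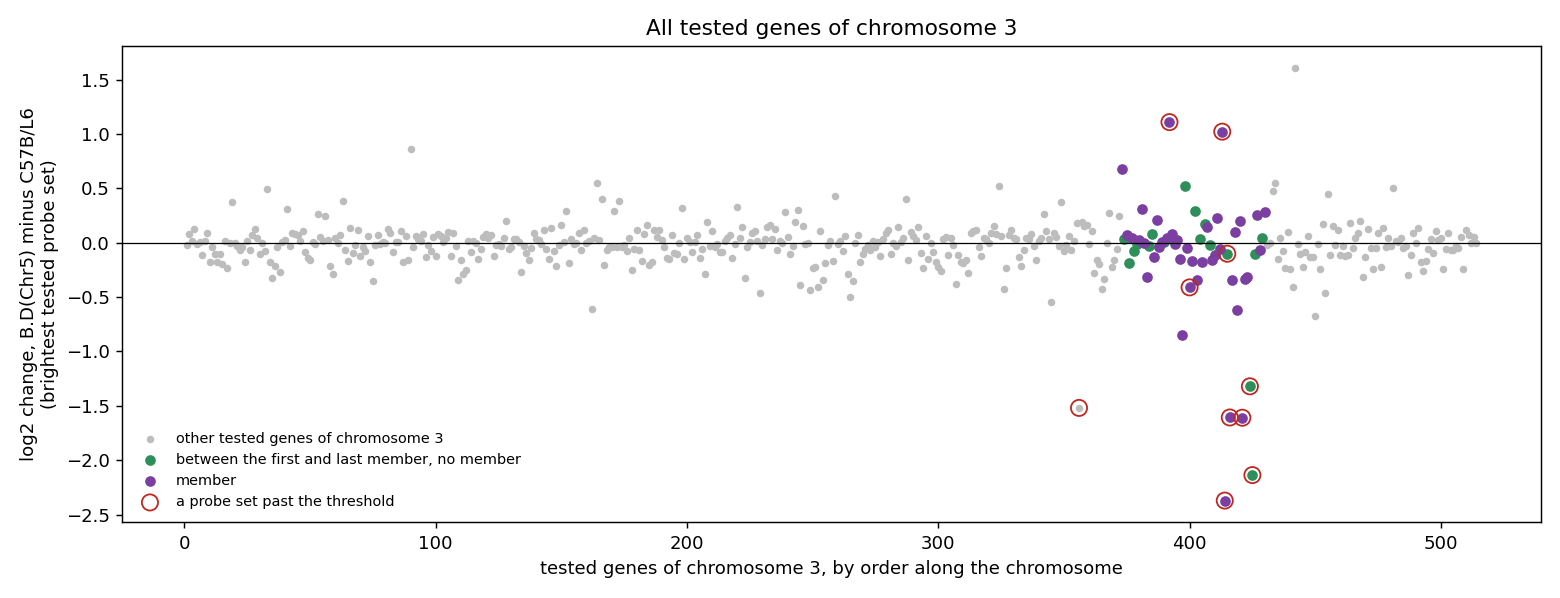
Log2 change, B.D(Chr5) minus C57B/L6, of the brightest tested probe set of each tested gene of chromosome 3 (points), by order along the chromosome; red circles mark genes with a probe set past the threshold. Most of the 456 genes outside the stretch (grey) lie near 0, and 9 of the 10 circled genes lie inside it. The stretch was selected on this comparison, so nothing is read from that count.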

How the data were processed

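Expression was measured on 6 Affymetrix mouse genome arrays, 3 per strain. The authors deposited 1 table with the linear intensity of each probe set. Per the submitters' processing notes it comes from MAS5, with a version not given in the sources used here. Each array had a mean, trimmed by 2% at both ends, of 500, and 0 pairs of arrays held identical values. Of 45101 probe sets, 64 controls were left out. Genes came from the platform annotation (34945 probe sets with 1 symbol, 932 with several, 9160 with none), updated through Entrez identifiers to RefSeq of GRCm38.p6 (34741 matched), which also gave the order of genes.

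Signals were turned into log2(signal + 16), and the upper 50% of probe sets by mean signal were fitted with limma 3.58.1 (R 4.3.3; lmFit, eBayes with trend, two-sided) with strain as the only term and Benjamini-Hochberg adjustment over all of them. The fit was tested on simulated data. A bound on a fold change uses, for the dimmer strain, the 95th percentile of 27 bacterial controls of each array. No detection calls were used, and the number of arrays limits the precision.

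The members, lists and tests were chosen with earlier results of these data known. Genes were named by rule: every member that passed with its values by array, members whose probe sets differed by over 1 on the log2 scale, and all other members by their brightest tested probe set. Of other genes, those that passed between the members and the nearest tested gene at each end were named. Values by array of further members, the statements without B.D(Chr5) replicate 2 and the 5 stretches were chosen after the values were seen. The alternatives were pseudocounts of 1 and 64, other filters on dim probe sets, other scaling, no trend in eBayes, a block for the replicate number, _x_at probe sets, a 1.5-fold minimum, an average of all tested probe sets of a gene and leaving out each array.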

Additional observations from a re-analysis of the deposited data

How the results depend on the processing

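The 8 calls of Cnn3 (4 probe sets), Fam102b (2), Tmem56 and Fnbp1l held under every alternative in which the probe set was tested, whereas those of Rwdd3 and Slc30a7 did not. The 4 higher calls became 2 with no filter on dim probe sets and with the replicate block. When 1 array was left out they were 2, or 3 without B.D(Chr5) replicate 2, where 1448330_at of Gstm1 was gained. The calls of Rwdd3 and Slc30a7 held in 0 of these 6 fits. With the upper 25% of probe sets the higher calls were also 2, where the called probe sets of Rwdd3 and Slc30a7 were too dim to be tested. The 6 lower calls became 3 without _x_at probe sets, which removes 3 of the called Cnn3 probe sets. Over all tested probe sets, the 41 calls became 70 with arrays centred on the median, 26 without trend, 25 with the replicate block and 22 to 74 when 1 array was left out. Leaving out C57B/L6 replicate 2 gave 23 and replicate 3 gave 24, while for B.D(Chr5) replicate 1 the count was 22 and for replicate 2 it was 74. The cause was not tested otherwise. The replicate numbers share no stated litter or day, and the correlations of same-numbered arrays were -0.11, -0.20 and 0.19, so they were not taken as pairs. In no alternative did a called probe set change sign. With 3 arrays per strain, small changes of dim genes near background cannot be resolved.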
